A study of Mus musculus with 6 samples.

Results

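The noncoding genes examined here were *Meg3*, *Rian*, *Mirg*, *Miat*, *Malat1*, *Neat1*, *Snhg11* and *Peg13*, 8 genes known for abundant noncoding transcripts in brain. Their Ensembl identifiers were looked up in GENCODE release M21, and each deposited row with one of these identifiers was taken. This gave 1 of the 8 genes, *Snhg11* (ENSMUSG00000044349), out of 18254 genes in the deposited table. *Meg3*, *Rian*, *Mirg*, *Miat*, *Malat1*, *Neat1* and *Peg13* were not analysed here, so that the account below is of *Snhg11*.

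The RNA came from the medial prefrontal cortex (mPFC) of male mice aged 10 to 12 weeks on the C57BL/6J background. *Shank3* TG mice carry an EGFP-*Shank3* transgene and overexpress this postsynaptic scaffold protein, and WT mice were their littermates without it. There were 3 libraries of each genotype, numbered 1 to 3, and each was made from poly(A) RNA pooled from the mPFC of 2 mice of that genotype. A replicate is therefore a pool of mice from 1 transgenic line. The deposited values are normalized counts, which are estimated reads per gene divided by a size factor for the library, and those of a library summed to between 28363967 and 29447717. *Shank3* itself was at 17470, 19003 and 16310 normalized counts in TG-1 to TG-3 and at 8374, 8173 and 6791 in WT-1 to WT-3, so every TG library lay above every WT library. Its log2 fold change was 1.18 (SE 0.10, n = 3 per genotype), with an adjusted p of 0.0643 in limma and 0.000437 in limma with the number as a blocking term.

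*Snhg11* is a small nucleolar RNA host gene. Small nucleolar RNAs (snoRNAs) are cut out of the introns of such genes after splicing, and the H/ACA class guides the conversion of uridine to pseudouridine in ribosomal and other RNAs. The spliced exons of a host gene may encode a protein or, as for many genes named *Snhg*, have little coding capacity. In the mouse brain, *Snhg11* is known as a neuronal transcript.

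In GENCODE M21 (GRCm38), *Snhg11* lay on the plus strand of chromosome 2, chr2:158375638-158386145, and spanned 10508 bases. Its gene type there was protein coding, whereas RefSeq lists it as a long noncoding RNA, so the 2 annotations differ on the class of this gene. The longest of its 5 annotated transcripts had 5 exons and 5864 bases, of which 261 were coding, or 87 codons without the stop. Its last exon alone held 5207 bases. The transcripts of 786 and 1329 bases were annotated as targets of nonsense-mediated decay, a pathway that removes RNAs with an early stop codon, and those of 3156 and 687 bases as transcripts with a retained intron. The deposited values are summed over the transcripts of a gene, so these forms were not told apart.

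**Figure D1:**
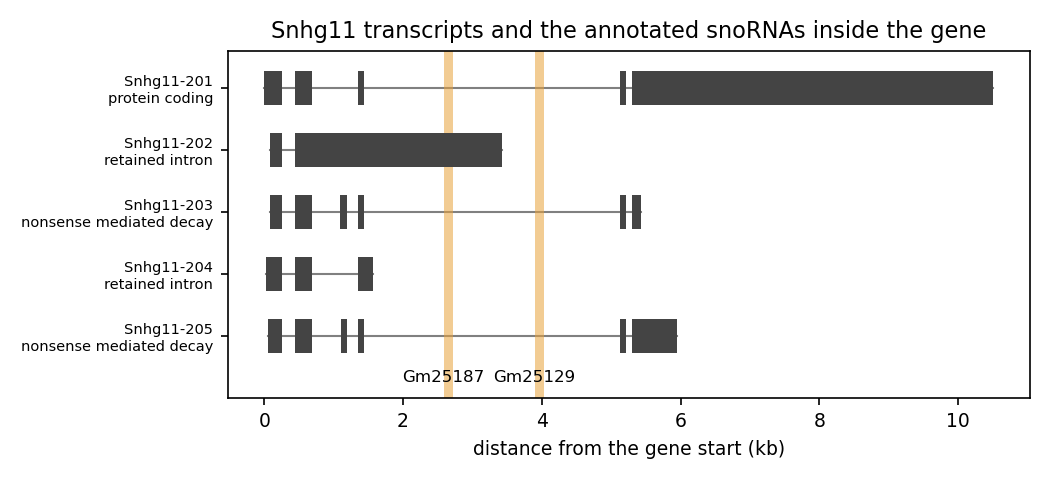
Annotated transcripts of *Snhg11* drawn against the distance from the gene start in kb, with exons as boxes, introns as lines and the snoRNAs Gm25187 and Gm25129 as shaded bands. Both bands fall between the third and the fourth exon of the longest transcript (top), and that of Gm25187 lies inside the long second exon of the retained-intron transcript of 3156 bases.

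The gene held 2 annotated snoRNAs, Gm25187 at chr2:158378222-158378354 and Gm25129 at chr2:158379534-158379666, both of 133 bases and both in intron 3 of the longest transcript. Gm25187 lay wholly inside an exon of the retained-intron transcript of 3156 bases, and Gm25129 did not. They are the small RNAs that make *Snhg11* a host gene, and their GENCODE M21 sequences (GRCm38, plus strand, 5′ to 3′) are given here. Capitals mark the hinge motif ANANNA (box H) and the motif ACA at the 3′ end.
Gm25187: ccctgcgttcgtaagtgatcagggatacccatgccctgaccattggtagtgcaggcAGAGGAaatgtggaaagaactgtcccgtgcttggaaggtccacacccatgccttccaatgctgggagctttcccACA
Gm25129: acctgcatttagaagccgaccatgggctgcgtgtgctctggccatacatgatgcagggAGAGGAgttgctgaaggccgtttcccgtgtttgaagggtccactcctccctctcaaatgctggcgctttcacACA
The neighbouring host gene *Snhg17* lies on the minus strand, and the nearest of its snoRNAs, Gm23925 at chr2:158359798-158359929, is shown for comparison.
Gm23925: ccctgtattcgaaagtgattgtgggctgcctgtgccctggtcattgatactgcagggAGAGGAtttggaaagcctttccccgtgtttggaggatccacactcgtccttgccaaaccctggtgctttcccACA

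The hinge was AGAGGA in all 3 of these sequences, starting at base 57 of Gm25187, 59 of Gm25129 and 58 of Gm23925, and ACA formed their last 3 bases. Of the other *Snhg17* snoRNAs, Gm24411 had the same hinge at base 58, and Gm26003 had AAAGGA at base 56. Among the 1507 snoRNAs of GENCODE M21, 67.1% held ANANNA with a start between bases 51 and 76 on the sense strand, 45.8% held ACA within the last 6 bases, and 35.2% held both. ACA was the very end of 2.19% of them. Gm25187 and Gm25129 were identical at 93 of 136 aligned positions (68.4%). Gm23925 shared 73.1% of aligned positions with Gm25187 and 74.1% with Gm25129, and a second *Snhg17* snoRNA, Gm24411, shared 69.4% and 72.4%. The third, Gm26003, shared 66.2% with Gm25187 and 59.4% with Gm25129, less than the 68.4% between the *Snhg11* snoRNAs. Since the libraries were made from poly(A) RNA, the deposited values are of the host transcript. The levels of the snoRNAs themselves were not analysed here.

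*Snhg11* was one of the most abundant of the 18254 genes in the deposited table by normalized counts, which are not scaled to gene length. It was at 73397 normalized counts in TG-1, 73762 in TG-2 and 82710 in TG-3. In the WT mPFC it was at 76751 in WT-1, 75477 in WT-2 and 92363 in WT-3. The highest library of each genotype was the one numbered 3, and the 4 libraries numbered 1 and 2 lay close together. *Snhg11* took between 0.255% and 0.314% of the normalized counts of a library and held rank 16 among all genes in 5 libraries and rank 18 in TG-3. By the mean over the 6 libraries, 79077 normalized counts, 6 nuclear genes lay above it. Among them were the neuronal genes *Camk2a*, *Kif5a* and *Snap25*, of which *Kif5a* and *Snap25* were named after their values had been seen.

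**Figure D2:**
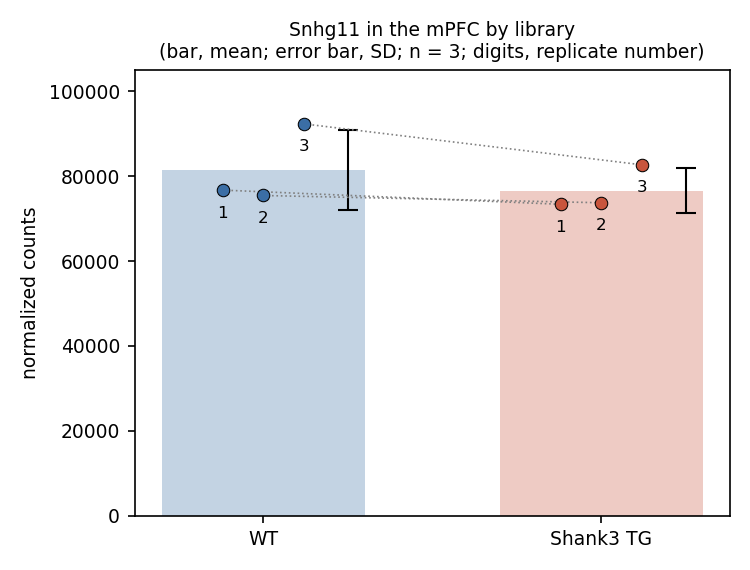
*Snhg11* in normalized counts for the 3 WT and 3 *Shank3* TG libraries, with the mean as a bar, the SD as an error bar and dotted lines between libraries with the same replicate number. The mean was 81530 in WT and 76623 in TG, the genotypes overlapped, and library 3 was the highest of each.

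Levels of different genes were compared per kb of exon, counting each annotated exon base of a gene once (8521 bases for *Snhg11*). On this scale *Snhg11* was at 8614, 8657 and 9707 normalized counts per kb in TG-1 to TG-3 and at 9007, 8858 and 10839 in WT-1 to WT-3, and its mean over the libraries ranked 51 among 18215 genes with a length. Per kb of the longest transcript it ran from 12517 to 15751. *Camk2a*, the calcium/calmodulin-dependent kinase subunit of excitatory neurons, was at 15385 ± 1405 per kb of exon (SD, n = 6) and lay above *Snhg11* in 6 of 6 libraries. The vesicular glutamate transporter gene *Slc17a7* was at 7720 ± 454 per kb and lay below *Snhg11* in every library, by 1.09-fold to 1.47-fold. Among markers of other cells, *Snhg11* was 9.68-fold above *Gad1* of inhibitory neurons, 19.9-fold above *Csf1r* of microglia and 44.4-fold above *Flt1* of endothelial cells, in means per kb. In bulk tissue, fewer cells of a type and less RNA per cell cannot be told apart.

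The annotation placed at least 1 snoRNA inside 248 genes of the table, on the same strand. By normalized counts *Snhg11* ranked 1 among them, and per kb of exon it ranked 2. Only *Hspa8*, which encodes the constitutive HSC70 chaperone and holds 3 snoRNAs, had a higher mean per kb, 11989 ± 1431 (SD, n = 6). *Hspa8* exceeded *Snhg11* in 5 of 6 libraries and was below it in WT-3. The translation elongation factor gene *Eef2*, next in order at 8794 ± 996 per kb, was above *Snhg11* in 3 of 6 libraries, so their order was within the spread of the libraries. *Atp5b*, an ATP synthase subunit gene with 2 snoRNAs, and *Rps3a1*, a ribosomal protein gene, were below *Snhg11* in every library, with means of 5635 and 5690 per kb.

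The 134 genes of a long noncoding type in the annotation were far lower, with a median of 14.3 and a maximum of 2794 normalized counts in the mean over libraries. The maximum was that of *Cct6a*, which the annotation typed as a processed transcript and not as lincRNA. None of these 134 lay above *Snhg11*, which the annotation itself typed as protein coding. Of the 18254 genes of the table, 16746 were protein coding there, so this ranking holds only among the rows analysed. *Gm10419*, the most abundant one typed as lincRNA, was at 210 ± 8.86 per kb of exon (SD, n = 6), and *Snhg11* was 44.2-fold above it. Of the 18 other *Snhg* and related host genes listed, 1 was analysed, *Zfas1*, at 602, 466 and 461 normalized counts in TG-1 to TG-3 and 486, 446 and 587 in WT-1 to WT-3. Per kb, *Snhg11* was 53.5-fold above *Zfas1*. Of 30 other long noncoding RNAs known from brain, 1 was analysed, *A330008L17Rik*, at 131, 115 and 172 normalized counts in TG and 141, 143 and 161 in WT, and *Snhg11* was 369-fold above it per kb.

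**Figure D3:**
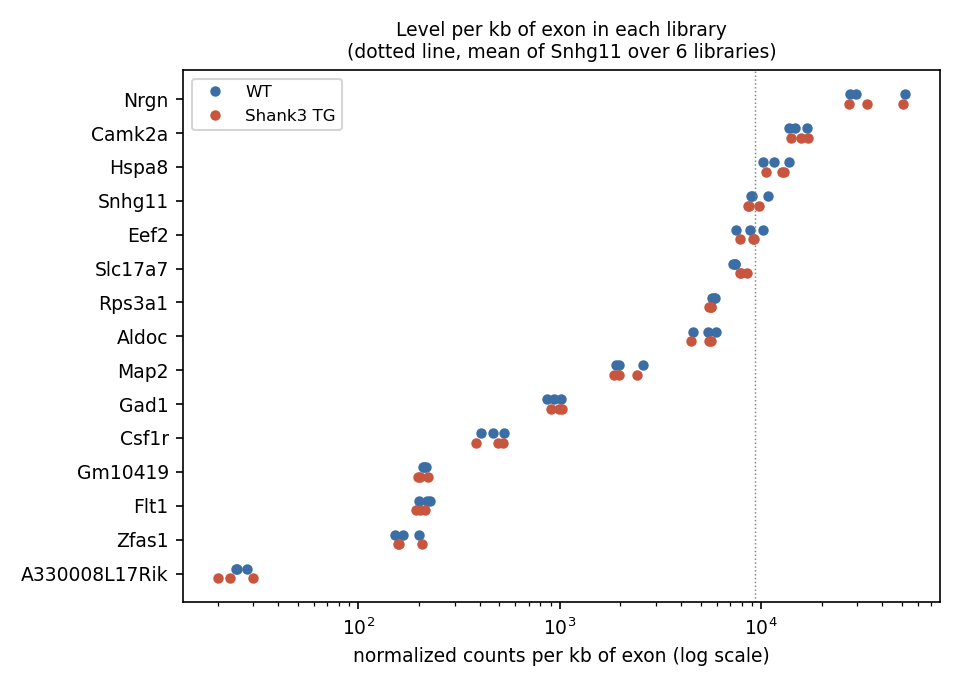
Normalized counts per kb of exon on a log axis for *Snhg11*, cell type markers, other snoRNA host genes and long noncoding RNAs, with one point per library. *Snhg11* (mean 9280) lies beside *Hspa8* and *Eef2*, below *Camk2a* and *Nrgn*, and far above *Zfas1*, *Gm10419* and *A330008L17Rik*.

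The difference of *Snhg11* between the genotypes was smaller than the spread between libraries of a genotype. The mean was 76623 ± 5274 normalized counts in TG and 81530 ± 9403 in WT (SD, n = 3 each). The TG libraries ran from 73397 to 82710 and the WT libraries from 75477 to 92363, so they overlapped, while 6.02% of the 16714 tested genes had no overlap. The log2 fold change (TG minus WT) was -0.09 (SE 0.11, 95% interval -0.33 to 0.16, adjusted p = 1 in limma across all tested genes), and the interval covers changes in either direction. Limma called 0 of the 16714 genes at an adjusted p under 0.05 (0%), and 336 (2.01%) had an unadjusted p under 0.05, of which *Snhg11* was not one. Without WT-3 the log2 fold change of *Snhg11* was 0.00744 in place of a value below 0.

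At each replicate number *Snhg11* was lower in TG than in WT, though only the libraries numbered 3 were seen to match across the genotypes. The log2 difference was -0.06 between TG-1 and WT-1, -0.03 between TG-2 and WT-2 and -0.16 between TG-3 and WT-3. Over all tested genes the medians of the same differences lay between -0.01 and 0.00, and 13.2% of the genes were below WT at every number. With a block for the replicate number, the adjusted p of *Snhg11* was 0.996 in limma, and 1 gene (0.00598%), *Shank3*, was called. Of the 6 markers of oligodendrocytes, 5 were lower in TG at an unadjusted p under 0.05, beside 180 lower of the 16714 tested genes, with none called and a median log2 fold change of -0.47. Their summed level was 37565 to 49537 normalized counts in TG and 54783 to 65161 in WT. The part of this difference in the value of *Snhg11* was not tested.

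**Figure D4:**
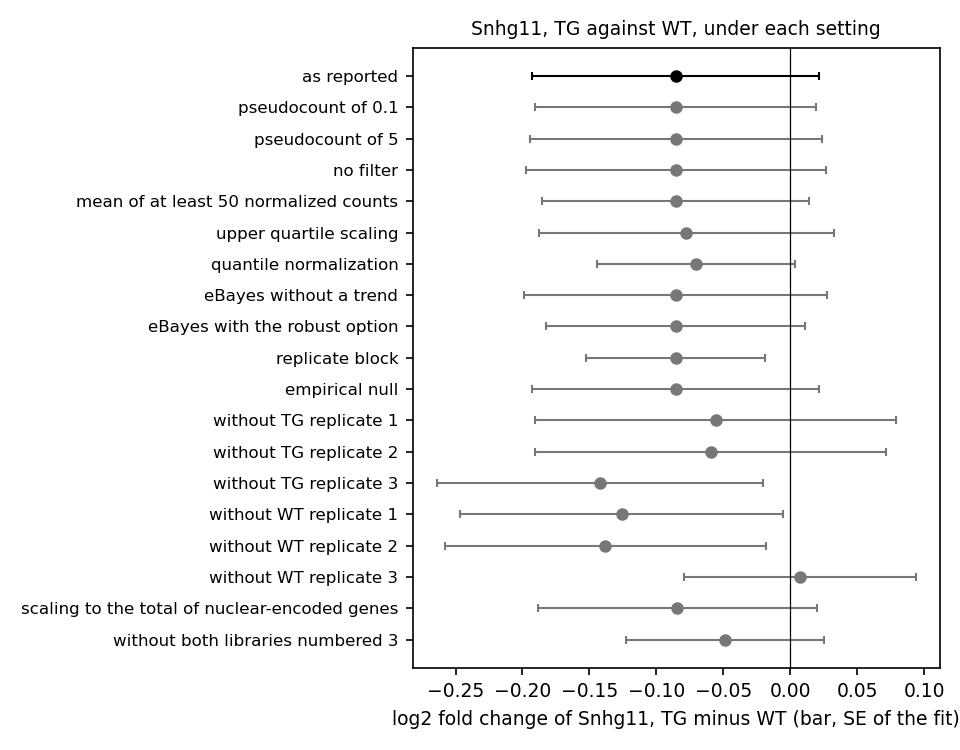
Log2 fold change of *Snhg11* (TG minus WT) with the SE of the fit as reported and under 18 other settings. Of these, 17 gave a value below 0, between -0.142 and -0.0488, and the fit without WT-3 gave 0.00744.

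The libraries numbered 3 differed from the others in both genotypes. *Snhg11* in library 3 lay 0.17 above the mean of libraries 1 and 2 in TG and 0.28 above it in WT on the log2 scale, which is 1.12-fold and 1.21-fold. The same difference over all tested genes had a median of 0.00 in both genotypes, with quartiles of -0.18 and 0.19 in TG and -0.18 and 0.24 in WT. The value of *Snhg11* exceeded that of 72.7% of the tested genes in TG and 77.7% in WT, and exceeded that of 78% and 85.8% of the 500 most abundant genes. Library 3 was the highest of both genotypes for 4159 of 16714 genes (24.9%) and the lowest of both for 4235 (25.3%). This split was noticed in these libraries and was given no test. By rank of the normalized counts, *Snhg11* held 16 in WT-3 as in WT-1 and WT-2 and stood at 18 in TG-3 against 16 in TG-1 and TG-2. By rank per kb of exon it stood higher in library 3, at 50 in TG-3 against 61 and 57 in TG-1 and TG-2, and at 42 in WT-3 against 56 and 54 in WT-1 and WT-2. After quantile normalization, which gives equal values to equal ranks of the normalized counts, the difference was -0.21 in TG and 0.00 in WT.

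Other gene groups moved with the libraries numbered 3. Of the 13 mitochondrially encoded mRNAs, 11 were highest in library 3 in both genotypes, with median log2 differences of 0.15 in TG and 0.39 in WT. They took 9.24%, 8.89% and 9.87% of the normalized counts in TG-1 to TG-3 and 8.76%, 8.75% and 11.3% in WT-1 to WT-3. Excitatory neuron markers were higher in library 3 by a median of 0.21 in TG and 0.19 in WT, with 4 of 6 highest there in both genotypes and none lowest. Their sum ran from 197455 to 257350 normalized counts in TG and from 192973 to 252072 in WT. Astrocyte markers were lower in library 3, by medians of -0.31 in TG and -0.22 in WT, and so were microglia markers, by -0.30 and -0.24, with 4 of 6 of each list lowest there in both genotypes. Choroid plexus markers were higher in library 3 by medians of 1.20 in TG and 0.67 in WT. Of these, *Ttr* (transthyretin) was at 127, 22.9 and 445 normalized counts in TG-1 to TG-3. In WT-1 to WT-3 it was at 14.3, 12.6 and 41.7, so WT-3 lay below TG-1. The part of these groups in the values of *Snhg11* was not tested.

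The other 247 host genes by annotation were divided in library 3. Of the 244 that were tested, 73 were highest in library 3 in both genotypes and 67 lowest, and their median difference was 0.02 in TG and 0.01 in WT. *Map2*, a dendritic microtubule protein gene with 1 annotated snoRNA, was higher in library 3 by 0.33 in TG and 0.42 in WT. *Hspa8* was lower there by a log2 difference of -0.28 in TG and -0.32 in WT, and *Eef2* by -0.23 and -0.33. The 101 tested genes of a long noncoding type had medians of 0.15 in TG and 0.17 in WT, with 29 highest in library 3 in both genotypes and 8 lowest. *Gm10419* differed by 0.15 in TG and 0.04 in WT.

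**Figure D5:**
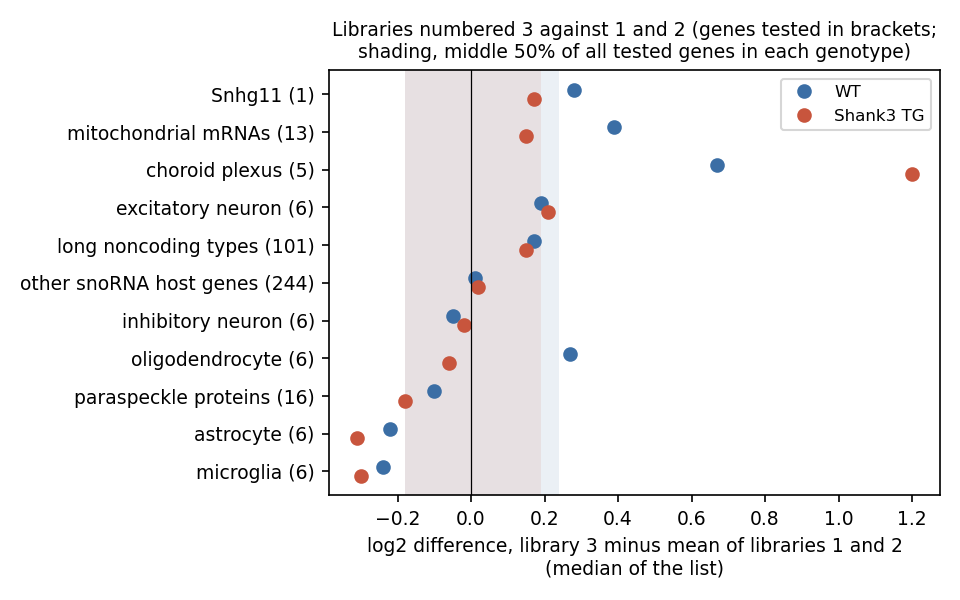
Log2 difference between library 3 and the mean of libraries 1 and 2 within each genotype, for *Snhg11* and as the median of other gene lists, with shading for the middle 50% of all tested genes. *Snhg11* stands at 0.17 in TG and 0.28 in WT, near the mitochondrial and excitatory neuron lists, while the other host genes stand at 0.02 and 0.01.

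Between the genotypes, no gene of these lists was called. Among the 244 tested host genes other than *Snhg11*, 97 had a log2 fold change above 0 and 147 below it, and the median was -0.02. Over all tested genes, 8114 lay above 0 and 8595 below it, with a median of 0.00. At an unadjusted p under 0.05, 1 of the 244 was lower and 0 higher, beside 2.01% of all tested genes in either direction. The proteins of the snoRNA ribonucleoproteins, such as *Nop56* and *Nop58* of the box C/D class, had a median of -0.04 over 10 genes, and the factors of nonsense-mediated decay, such as the kinase gene *Smg1*, one of -0.01 over 10 genes. *Zfas1* had a log2 fold change of 0.01 (SE 0.15) and *A330008L17Rik* one of -0.11 (SE 0.17). The medians were -0.03 over 16 paraspeckle protein genes and -0.05 over 18 nuclear speckle and splicing protein genes. Paraspeckle proteins assemble on *Neat1* RNA, and *Malat1* RNA is found in nuclear speckles.

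Coding genes of the imprinted domains that hold *Meg3*, *Rian*, *Mirg* and *Peg13* were also measured. In the Dlk1-Dio3 domain, *Begain*, *Rtl1* and *Dio3* had log2 fold changes of 0.06 (SE 0.08), 0.00 (SE 0.09) and -0.06 (SE 0.49). Near *Peg13*, the potassium channel gene *Kcnk9* was at 597, 554 and 673 normalized counts in TG and at 528, 528 and 542 in WT. Its libraries did not overlap, as for 6.02% of all tested genes, with a log2 fold change of 0.19 (SE 0.10, adjusted p = 1 in limma). *Trappc9*, the gene around *Peg13*, and *Ago2* differed by 0.06 (SE 0.07) and 0.01 (SE 0.08). Of 33 other imprinted genes tested, 2 were higher and 0 lower at an unadjusted p under 0.05, beside 156 higher and 180 lower of the 16714 tested genes (2.01% in all), and their median was -0.06.

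The tested genes next to *Snhg11* on chromosome 2 were *Lbp*, 42786 bases away, and *Ralgapb*, 23703 bases away. *Ralgapb*, a subunit gene of a Ral GTPase activating complex, was at 3681, 3992 and 4663 normalized counts in TG and 4425, 3977 and 4936 in WT. Like *Snhg11*, it was highest in library 3 in both genotypes, and its log2 fold change between genotypes was -0.11 (SE 0.11), which became -0.21 without TG-3, -0.19 without WT-2 and -0.04 without either TG-1 or WT-3. *Lbp*, which encodes a lipopolysaccharide binding protein, was at 77.1, 54.8 and 57.2 in TG and 49.5, 66.4 and 80 in WT, with a log2 fold change of -0.04 (SE 0.24) and no such order.

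The genes whose pattern was most like that of *Snhg11* were *Ddc* and *Tgs1*, by Pearson's r of log2(normalized count + 1) over the 6 libraries, among 13454 genes with a mean of at least 50. *Ddc*, the aromatic amino acid decarboxylase gene, had r = 0.998 and was at 79.4, 78.3 and 172 normalized counts in TG and 106, 86.7 and 367 in WT. *Tgs1*, whose enzyme adds the trimethylguanosine cap to small nuclear and nucleolar RNAs, had r = 0.996 and was at 786, 803 and 948 in TG and 845, 808 and 1174 in WT. Both were highest in WT-3 and second highest in TG-3, as was *Snhg11*. An r of at least 0.9 was reached by 740 genes (5.5%), and the median r was -0.08. With 6 libraries, of which the pair numbered 3 stood apart, r is given as a description.

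Within a genotype, the SD of log2 *Snhg11* was 0.13, beside a median of 0.17 for all tested genes and 0.11 for the 500 most abundant. The SD was smaller for 37.6% of tested genes and for 65.4% of the 500 most abundant. The coefficient of variation was 6.88% in TG and 11.5% in WT. Most of this spread came from library 3, since *Snhg11* was at 73397 and 73762 normalized counts in TG-1 and TG-2 and at 76751 and 75477 in WT-1 and WT-2.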

How the data were processed

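RNA-seq of 3 *Shank3* TG and 3 WT mPFC pools was analysed from the deposited signal, the authors' normalized counts (estimated counts from Salmon 0.9.1 on GRCm38, summed to genes and divided by DESeq2 1.19.11 size factors in R 3.6.0, versions per the submitters' processing notes and the study's methods). The transcript annotation used by the authors is not given in the sources used here. Because the values are not whole, reads were not recovered, no counting interval was given and no count test was run. Values of a library summed to 28363967 to 29447717.

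The 16714 genes whose mean over the libraries reached 5 normalized counts were tested with limma 3.58.1 in R 4.3.3 on log2(value + 1), with genotype as the only term, eBayes with a trend, two-sided p and Benjamini-Hochberg adjustment over all tested genes (threshold 0.05). Fold changes are on this scale. The scripts were tested on simulated data with independent noise in each gene and library, without the shift shared by the libraries numbered 3. Annotation came from GENCODE M21, in which 18215 of 18254 genes were found. P-values measure the spread between pools. Deviations from the genotype means correlated across genes at 0.30, 0.33 and 0.62 for libraries numbered 1, 2 and 3 (at most 0.27 otherwise). Between TG-1 and WT-2 the value was 0.27 and between TG-2 and WT-1 it was 0.23, close to 0.30 and 0.33. Pairing by number was thus seen for number 3 but not told apart for 1 and 2, and the block was fitted as an alternative.

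The 8 genes and the lists were chosen with earlier results of these data known, and the snoRNA ribonucleoprotein and decay lists and those by annotation were added after the table was opened. Named were the listed RNAs, *Shank3*, at most 3 of the most abundant tested genes of a list (5 of the host genes), the adjacent tested genes and the 2 genes most like *Snhg11*. *Kif5a*, *Snap25* and *Rps3a1* were named after their values were seen. Alternatives were pseudocounts of 0.1 and 5, no filter or a mean of 50, upper quartile and quantile scaling, eBayes without a trend or robust, a replicate block, an empirical null and each library left out. Ratios between *Meg3*, *Rian* and *Mirg*, planned at first, were not made, since these genes were not analysed here.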

Additional observations from a re-analysis of the deposited data

How the results depend on the processing

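The log2 fold change of *Snhg11* between TG and WT stayed below 0 in 17 of 18 alternatives, was 0.00744 without WT-3, and ran from -0.142 to 0.00744 when 1 library was left out. *Snhg11* was called in none of them, with adjusted p between 0.957 and 1 in limma. With the replicate number as a block its log2 fold change was -0.0856 and its adjusted p 0.996, and the block changed no other call of a named gene than that of *Shank3*. The number of genes called, 0 at first, was 1 with upper quartile scaling, with the robust option, with the replicate block and without both libraries numbered 3, 26 with the empirical null, and 0 to 1 with 1 library left out, where WT-3 gave the 1. The difference of library 3 from libraries 1 and 2 became -0.21 in TG and 0.00 in WT after quantile normalization, in which a gene's value is set by its rank alone. The log2 fold change of *Lbp* ran from -0.22 to 0.12 with 1 library left out and was 0.18 without both libraries numbered 3. With 1 library left out, that of *Ralgapb* ran from -0.21 to -0.04, that of *Zfas1* from -0.12 to 0.12, that of *Ddc* from -0.94 to 0.10 and that of *Tgs1* from -0.24 to 0.03. The cause of these changes was not tested. Scaling to the nuclear total and leaving out both libraries numbered 3 were chosen after seeing the data. The depth in reads is unknown from the deposited values, and 3 pools per genotype limit the precision.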

Other observations

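Markers of tissue bordering the mPFC were also measured in the same libraries. Over 5 leptomeningeal markers the median log2 fold change (TG minus WT) was 0.37, with 2 higher at an unadjusted p under 0.05 in limma and none called. Over all 16714 tested genes, 156 were higher and 180 lower at that threshold (2.01% in all). The summed level of the leptomeningeal markers was 1159 to 1420 normalized counts in TG and 987 to 1039 in WT. Choroid plexus markers had a median of 0.48 over 5 genes, with 1 at an unadjusted p under 0.05, and their sum was 98.6 to 551 in TG and 83.5 to 153 in WT. Striatal neuron markers had a median of -0.31 and olfactory bulb markers one of 0.36, with 0 of 5 genes of either list at an unadjusted p under 0.05. The sum of the olfactory bulb markers was 1117 to 2121 in TG and 1187 to 1434 in WT. TG-2 held the highest values of the 3 named markers, with *Doc2g* at 386 there against 79 and 102 in TG-1 and TG-3, *Th* at 170 against 38.1 and 47.2, and *Dlx1* at 1364 against 993 and 963. In TG-1 and TG-3, *Doc2g* and *Th* had lower means than in WT.

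Among imprinted genes, *Gnas*, which encodes the stimulatory G protein subunit, was at 26916, 26547 and 47875 normalized counts in TG and 28403, 26072 and 51291 in WT, so both libraries numbered 3 stood well above the rest. *Snrpn*, whose locus also hosts snoRNAs, moved the other way, at 25624, 24767 and 21143 in TG and 24660, 24716 and 18342 in WT. *Peg3*, a zinc finger gene, was at 13337, 13738 and 14396 in TG and 13602, 14969 and 15226 in WT.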
